A study of Mus musculus with 36 samples.

Results

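The genes described here encode the enzymes and transporters that turn glucose into pyruvate and then handle pyruvate, by exporting it as lactate or passing it to mitochondria. They were chosen by symbol: 35 gene symbols were looked up in the deposited expression tables and matched 36 of 54281 gene records, because Aldoa stood for 2 records, of which the second was very low. All 36 records passed the filter on low counts, so none was left out of any test. The question was how these genes, and the balance between paralogs that do the same step, changed over days of neural differentiation in wild type cells and in cells without TET1, one of the enzymes that convert 5-methylcytosine of DNA to hydroxymethylcytosine.

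RNA was measured in bulk in 36 libraries of male mouse embryonic stem cells (ESCs) and their derivatives. ESCs were kept with serum and LIF on feeder cells, which were removed before the day 0 samples, and were then grown in serum-free N2B27 medium, with bFGF up to day 3 and without it afterwards, a protocol that yields anterior neural progenitors by day 5. The Tet1 KO group comprised lines KO1 and KO15 and the WT group lines WT7 and WT34. All 4 came from blastocysts of the (B6 × 129S6)F1 Tet1 tm1Koh strain, in which Tet1 is interrupted by an insertion. KO and WT each had 2 libraries on days 0, 1, 2 and 4, 4 libraries on day 3 and 3 libraries on day 5. The MUT group comprised 2 clones, CM59 and CM69, made from WT7 by Cas9 and homology directed repair so that they carry a catalytically dead TET1, with 2 libraries on day 3 and 2 on day 5. Their control, a line labelled WT70 and described in the labels only as WT, had 1 library on each of those days. Day 0 was collected only in experiment 1 and days 1, 2 and 4 only in experiment 2, days 3 and 5 in both, and all MUT and WT70 libraries in experiment 3. Replicates 1 and 2 of KO and WT on days 3 and 5 were from experiment 1 and the others from experiment 2. Replicates were lines or repeat differentiations of a line, and all were treated as independent. P-values thus measure the spread of libraries within groups, pooled over the groups, and not the spread between lines. Whether groups overlap is given only as a description. With 2 libraries a group they are often apart by chance, and the share of all genes was not counted.

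In glycolysis, glucose enters through facilitative transporters, is phosphorylated by hexokinase and committed by phosphofructokinase, and is split and oxidised to pyruvate with a small yield of ATP. Lactate dehydrogenase reduces pyruvate to lactate, which leaves through monocarboxylate transporters, while the mitochondrial pyruvate carrier and pyruvate dehydrogenase feed pyruvate into the citrate cycle and pyruvate dehydrogenase kinases switch that entry off. ESCs, particularly primed ones, are known for high glycolytic flux, and many genes of the pathway are known targets of the hypoxia-inducible factors.

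Libraries held between 10.1 and 26.3 times 1e+06 counts, and mitochondrial transcripts took 1.21 to 3.12% of counts in all but WT day 1 replicate 1, at 5.68%. Tet1 itself was at 28.9 to 33.3 CPM (counts per 1e+06 counts, scaled between libraries) in KO day 0 libraries, against 1308 to 1432 CPM in WT day 0 libraries, in keeping with the labels. The summed level of 5 primitive streak markers was 391.5 to 690 CPM in KO day 3 libraries, against 12.01 to 24.8 CPM in WT day 3 libraries, and that of 7 neural markers was 63.6 to 112 CPM in KO day 5 libraries, against 424 to 461 CPM in WT day 5 libraries. On day 5, 7 of 7 cardiac muscle markers were also higher in KO cells, at a sum of 193 to 288 CPM in KO libraries and 18.1 to 25.6 CPM in WT libraries. These sums did not overlap between KO and WT libraries, and since the samples are bulk, fewer cells of a type and less RNA per cell cannot be told apart.

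The promoters of 4 genes on which the results turn are shown: Ldha and Pgk1, whose levels moved with the days in every genotype, and Slc2a1 and Slc16a1, whose levels differed most between KO and WT cells. Each window runs from 250 bases before to 50 bases after the RefSeq transcription start on GRCm38.p6. All 4 genes lie on the plus strand, and the last 50 bases of each window are transcribed from that start. The windows are chr7:46845554-46845853 for Ldha, chrX:106186850-106187149 for Pgk1, chr4:119108495-119108794 for Slc2a1 and chr3:104638414-104638713 for Slc16a1. Capitals mark ACGTG, the core letters bound by hypoxia-inducible factors, and GCGTG, on either strand (read as CACGT and CACGC on the minus strand), with CACGTG, the E-box letters that MYC binds, in capitals in full where it overlaps ACGTG.
Ldha: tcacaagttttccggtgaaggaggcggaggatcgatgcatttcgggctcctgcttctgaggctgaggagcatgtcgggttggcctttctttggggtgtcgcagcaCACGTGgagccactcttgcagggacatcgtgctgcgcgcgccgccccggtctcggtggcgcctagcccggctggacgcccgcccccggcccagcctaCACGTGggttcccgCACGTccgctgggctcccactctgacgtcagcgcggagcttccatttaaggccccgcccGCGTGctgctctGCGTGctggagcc
Pgk1: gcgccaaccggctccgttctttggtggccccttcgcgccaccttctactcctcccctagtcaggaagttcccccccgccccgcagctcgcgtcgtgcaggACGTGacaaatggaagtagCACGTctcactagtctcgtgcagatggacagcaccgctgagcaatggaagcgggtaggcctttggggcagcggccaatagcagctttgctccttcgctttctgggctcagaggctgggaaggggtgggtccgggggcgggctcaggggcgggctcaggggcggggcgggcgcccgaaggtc
Slc2a1: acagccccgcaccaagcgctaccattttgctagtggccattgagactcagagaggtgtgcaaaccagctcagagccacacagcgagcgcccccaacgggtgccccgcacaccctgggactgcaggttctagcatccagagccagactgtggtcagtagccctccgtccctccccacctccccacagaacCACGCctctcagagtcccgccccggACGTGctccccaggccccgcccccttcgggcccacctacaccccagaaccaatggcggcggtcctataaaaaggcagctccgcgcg
Slc16a1: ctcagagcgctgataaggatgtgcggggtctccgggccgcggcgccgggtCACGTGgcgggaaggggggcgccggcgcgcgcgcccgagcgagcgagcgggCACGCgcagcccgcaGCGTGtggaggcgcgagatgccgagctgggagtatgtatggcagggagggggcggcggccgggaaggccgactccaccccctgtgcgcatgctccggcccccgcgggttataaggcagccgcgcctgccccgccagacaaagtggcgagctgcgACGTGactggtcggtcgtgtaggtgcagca
Matches were counted on each strand, so 1 CACGTG site adds 2 to the ACGTG count and is also counted as CACGTG. The number of separate sites is therefore smaller than the ACGTG count where CACGTG occurs. So counted, the Ldha window shown held 5 ACGTG, 2 GCGTG and 2 CACGTG. It is 1 of 2 RefSeq windows of Ldha, and the other, chr7:46846832-46847131, held no ACGTG or CACGTG and 2 GCGTG. The window of Slc16a1 held 3 ACGTG, 2 GCGTG and 1 CACGTG. The Slc2a1 window held 1 ACGTG and 1 GCGTG, and the Pgk1 window 2 ACGTG. RefSeq promoter windows were found for 34 of the 35 symbols, Slc2a3 excepted. ACGTG or GCGTG occurred in 40 of the 54 windows of these genes (74.1%), compared with 43.8% of all 32851 windows of the same length, and CACGTG in 6 of 54 (11.1%), compared with 7.15%. The member windows were also richer in G and C, with a median of 60.8%, against 52.7% over all windows. A match of letters is a description and not evidence of binding.

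The summed level of all members was lowest on day 1 and highest on day 5 in KO and WT cells. In TPM, a unit that corrects for transcript length and so allows genes to be added and compared, the members made up 1.04, 0.790, 0.874, 0.977, 1.24 and 1.56% of all transcripts in KO cells on days 0 to 5 (group means) and 1.02, 0.811, 0.974, 1.03, 1.30 and 1.61% in WT cells. On day 1 the 2 KO libraries were at 0.777 and 0.803% and the 2 WT libraries at 0.810 and 0.812%, below every library of day 0. Days 0 and 1 were in different experiments, and the sums are not corrected for this. On day 3 KO libraries were at 1.03 and 1.04% in experiment 1 and 0.985 and 0.851% in experiment 2. WT libraries of day 3 were at 1.02 and 1.05% in experiment 1 and 1.07 and 0.964% in experiment 2. On day 5 the sum was 1.55 to 1.58% in KO libraries and 1.58 to 1.67% in WT libraries, above every library of days 0 to 4. In MUT cells it averaged 0.900% on day 3 and 1.46% on day 5, and WT70 was at 1.05% on day 3 and 1.48% on day 5. Gapdh, the glyceraldehyde-phosphate dehydrogenase often used as a reference gene, Eno1, the ubiquitous enolase, and Pkm, the muscle-type pyruvate kinase, together accounted for 54.3 to 76.3% of the members' TPM in a library. Gapdh alone was 0.352 to 0.632% of all TPM. No difference between KO and WT in the summed level was tested.

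Levels differed widely between genes. Over the 16 groups, mean TPM ran between 3772 and 5936 for Gapdh, 1075 and 2382 for Eno1 and 712 and 1214 for Pkm. Next came the other enzymes that cleave and rearrange the 3-carbon sugars: Aldoa, the main aldolase, at 310.8 to 1157, Tpi1, triose-phosphate isomerase, at 253.8 to 1065, Pgam1, phosphoglycerate mutase, at 166 to 360.5, and Pgk1 at 39.9 to 423 TPM. Ldha was at 317 to 974, Gpi1 at 205 to 516, Slc2a3 at 24.4 to 1441 and Slc2a1 at 70.5 to 529 TPM. Hk2 (29.0 to 54.7), Pdha1 (37.5 to 82.1), Pdhb (27.4 to 65.6), Ldhb (34.2 to 124), Pfkl (23.7 to 141), Slc16a1 (16.2 to 164), Slc16a3 (11.99 to 75.4), Pdk1 (21.0 to 161), Pdk3 (16.7 to 37.0), Pfkp (5.48 to 63.7), Aldoc (4.76 to 60.1) and Eno3 (8.55 to 50.5) were intermediate. The rest were at 25.0 TPM or less in every group: Hk1, Pfkm, Bpgm, Eno2, Pfkfb1 to Pfkfb4, Mpc1, Mpc2, Pdk2, Pdk4 and the second Aldoa record. Slc2a3 had the widest relative range of the abundant genes.

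**Figure D1:**
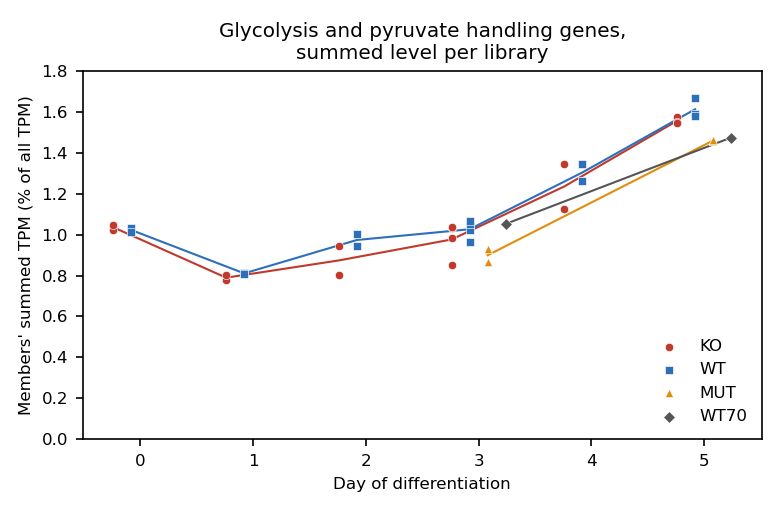
Summed TPM of the glycolysis and pyruvate genes as a percent of all TPM (y axis) against the day of differentiation (x axis), with 1 point per library and lines joining the group means. KO and WT cells dip to 0.790 and 0.811% on day 1 and reach 1.56 and 1.61% on day 5.

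Within the first day of neurobasal culture, genes along the whole pathway fell in both genotypes. A gene is said here to have risen or fallen where edgeR's quasi-likelihood test gave an adjusted p under 0.05 (Benjamini-Hochberg over 21601 genes), and the log2 fold change (FC) carries its standard error (SE). Between day 1 and day 0, 4 members rose and 19 fell in KO cells, where 33.3% of all tested genes were called (15.6% rose and 17.7% fell). In WT cells 5 members rose and 19 fell, where 31.3% of all tested genes were called (16.1% rose and 15.2% fell). The median log2 FC of the members was −0.34 in KO and −0.48 in WT cells, beside −0.06 in KO and −0.02 in WT cells over all tested genes. The same 17 members fell in both: Slc2a3, Hk1, Hk2, Pfkl, Pfkp, Pfkfb2, Aldoa, Aldoc, Tpi1, Pgk1, Pgam1, Eno2, Ldha, Mpc2, Pdk1, Pdk2 and Pdk4. Days 1 and 0 were sequenced in different experiments, and the model corrects for this with a term estimated on days 3 and 5. Over the same day 5 of 6 naive ESC markers fell in KO and 6 of 6 in WT cells, and of 6 feeder fibroblast markers 3 fell in each and 1 rose in KO cells, with sums of 39.4 to 44.3 CPM in KO and 34.7 to 35.7 CPM in WT libraries on day 1 and of 73.4 to 92.6 CPM in KO and 88.3 to 93.5 CPM in WT libraries on day 0. Their part in the fall was not tested.

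Slc2a3, the high-affinity glucose transporter GLUT3, fell furthest. It was at 144 and 124 CPM in KO day 1 libraries, against 1613 and 1504 CPM in KO day 0 libraries, and at 104 and 126 CPM in WT day 1 libraries, against 1258 and 1229 CPM in WT day 0 libraries. The days did not overlap in either genotype, and the log2 FC was −3.10 (SE 0.16, adjusted p 2.43e-13) in KO and −3.0 (SE 0.16, adjusted p 6.90e-13) in WT cells. Pgk1, phosphoglycerate kinase, which makes the first ATP of the pathway, was at 204 and 187 CPM on day 1 and 522 and 497 CPM on day 0 in KO cells, and at 126 and 188 CPM on day 1 and 461 and 562 CPM on day 0 in WT cells, with a log2 FC of −1.07 (SE 0.26, adjusted p 0.00205) in KO and −1.40 (SE 0.26, adjusted p 0.000186) in WT cells. Pdk4, a kinase that switches pyruvate dehydrogenase off, fell by 2.36 on the log2 scale in KO cells (SE 0.51, adjusted p 0.000655) and by 1.97 in WT cells (SE 0.50, adjusted p 0.0038). The related kinase Pdk2 fell by 1.89 in KO cells (SE 0.26, adjusted p 3.56e-06). The platelet-type phosphofructokinase Pfkp fell by 1.47 in WT cells (SE 0.32, adjusted p 0.000794), and Aldoc, the brain-type aldolase, by 1.76 in KO cells (SE 0.23, adjusted p 1.75e-06). Eno2, the neuronal enolase, was called lower too (log2 FC −2.13 in KO and −2.57 in WT cells), but it read lower in experiment 1 than in experiment 2 on days 3 and 5, and without the experiment term the difference was −1.0 in KO (adjusted p 0.241) and −1.44 in WT cells (adjusted p 0.092).

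A few genes rose over the same day. Pfkm, the muscle-type phosphofructokinase, was at 98.6 and 106 CPM in KO day 1 libraries, against 58.9 and 62.2 CPM in KO day 0 libraries, and at 72.8 and 92.3 CPM in WT day 1 libraries, against 40.3 and 45.4 CPM in WT day 0 libraries. The days were apart in both genotypes (log2 FC 0.94, SE 0.11, adjusted p 1.86e-07 in KO and 1.13, SE 0.11, adjusted p 1.87e-08 in WT cells). Slc16a3, the lactate exporter MCT4, rose in KO cells by a log2 FC of 1.24 (SE 0.23, adjusted p 0.000146) and in WT cells by 0.76 (SE 0.23, adjusted p 0.0132), and the WT value dropped to 0.28 (adjusted p 0.378) without WT day 1 replicate 2. Without WT day 0 replicate 1 or replicate 2 it was 0.73 (adjusted p 0.0586) or 0.76 (adjusted p 0.0559). Ldhb, the heart-type lactate dehydrogenase subunit, Pdhb, the beta subunit of pyruvate dehydrogenase, and in WT cells Gapdh were also called higher, by log2 FC of 0.56 and 0.43 in KO cells for Ldhb and Pdhb and of 0.69, 0.36 and 0.28 in WT cells. The Ldhb call was lost in KO cells without KO day 0 replicate 1 (0.25, adjusted p 0.424) or KO day 1 replicate 2 (0.40, adjusted p 0.248), and in WT cells without WT day 0 replicate 1 (0.66, adjusted p 0.0604) or WT day 1 replicate 1 (0.44, adjusted p 0.174). In a fit of only the libraries compared, with the line as a block, Gapdh, Pdhb, Ldhb and Slc16a3 were no longer called in WT cells. That fit could hold no experiment term, as days 0 and 1 were each from 1 experiment. The effects of the block and of the missing term cannot be told apart. The WT calls of Gapdh and Pdhb were each lost under 6 of 13 alternatives, with Gapdh at 0.08 (adjusted p 0.78) under the block and Pdhb at 0.10 (adjusted p 0.673) on log2(TPM + 1), and the KO call of Pdhb was lost under 3 of 13, at 0.19 (adjusted p 0.359) on log2(TPM + 1).

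From day 3 to day 5 most of the pathway rose, in all 3 genotypes. In KO cells 23 members rose and 4 fell (50.7% of all tested genes were called, 24.1% higher and 26.6% lower), 12 of them by a log2 FC beyond 1 (22.3% of all genes). In WT cells 21 rose and 5 fell (42.9% of all genes, 20.1% higher and 22.8% lower), and in MUT cells 23 rose and 3 fell (39.8% of all genes, 19% higher and 20.7% lower). The members' median log2 FC was 0.56 in KO, 0.70 in MUT and 0.47 in WT cells, beside −0.02, 0.00 and 0.01 over all tested genes. The same 19 members rose in KO, MUT and WT cells: Slc2a3, Hk1, Gpi1, Pfkl, Pfkp, Pfkfb3, Aldoa, Aldoc, Tpi1, Gapdh, Pgk1, Pgam1, Eno3, Pkm, Ldha, Slc16a1, Mpc2, Pdk1 and Pdk3. Of the members, 13 both fell between days 0 and 1 and rose between days 3 and 5 in KO and in WT cells. Pdk1, counted in both sets, overlapped between days 3 and 5 in WT cells. In experiment 1 it was at 63.6 and 54.5 CPM on day 3 and at 50.9 and 61.6 CPM on day 5. In experiment 2 it was at 54.7 and 53.8 CPM on day 3 and at 132 CPM in the single day 5 library.

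Slc2a3 again moved most, at 3239, 3185 and 2339 CPM on day 5 in KO cells, against 713, 614, 531 and 365 CPM on day 3. In WT cells it was at 4270, 4084 and 3568 CPM on day 5, against 834, 779, 619 and 581 CPM on day 3. No day 5 library came near a day 3 library, and the log2 FC was 2.33 (SE 0.10, adjusted p 2.17e-15) in KO, 2.86 (SE 0.14, adjusted p 1.09e-13) in MUT and 2.44 (SE 0.10, adjusted p 3.38e-15) in WT cells. Pgk1 reached 1413, 1495 and 1162 CPM on day 5 in KO cells, against 485, 459, 393 and 192 CPM on day 3, and 1316, 1022 and 1171 CPM on day 5 in WT cells, against 412, 345, 357 and 334 CPM on day 3. These ranges were also apart, with a log2 FC of 1.8 in KO (SE 0.17, adjusted p 2.61e-09), 2.29 in MUT (SE 0.24, adjusted p 2.49e-08) and 1.65 in WT cells (SE 0.17, adjusted p 2.42e-08). Pfkfb3, the bifunctional enzyme that makes most of the phosphofructokinase activator fructose 2,6-bisphosphate in proliferating cells, rose by a log2 FC of 1.84 in KO (SE 0.14, adjusted p 6.89e-11), 1.90 in MUT (SE 0.19, adjusted p 2.02e-08) and 1.92 in WT cells (SE 0.14, adjusted p 8.02e-11). Aldoc and Pfkp rose in all 3, by log2 FC of 2.05 and 2.08 in KO, 1.53 and 1.59 in MUT and 1.52 and 1.24 in WT cells. Ldha, the muscle-type subunit that favours lactate formation, was at 2118, 2159 and 2005 CPM on day 5 and at 1126 to 1649 CPM on day 3 in KO cells, with a log2 FC of 0.51 (SE 0.10, adjusted p 0.000117).

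The genes that fell between days 3 and 5 act at the fate of pyruvate or beside the main path, but other genes of pyruvate fate rose. Of 8 members at pyruvate entry into mitochondria, 4 rose and 3 fell in KO, 4 rose and 1 fell in MUT and 5 rose and 2 fell in WT cells. The shares of all genes are given above. Pdha1 was among those that rose in MUT and WT cells. Ldhb fell in KO (−0.96), MUT (−0.71) and WT cells (−0.48), and Pdhb in KO (−0.68), MUT (−0.71) and WT cells (−0.47). The Ldhb call in MUT cells was lost without MUT day 5 replicate 2 (−0.59, adjusted p 0.0549). Mpc1, a subunit of the mitochondrial pyruvate carrier, fell in KO (log2 FC −1.91, SE 0.22, adjusted p 6.48e-08) and WT cells (−0.96, SE 0.22, adjusted p 0.00104), and with the cell line as a block the WT value was −0.85 (adjusted p 0.0813). Pfkfb2, the heart-type bifunctional enzyme, fell in MUT (−0.69) and WT cells (−0.67), and Bpgm, which diverts a glycolytic intermediate to 2,3-bisphosphoglycerate, in WT cells (−0.47). Pdha1, the catalytic alpha subunit of pyruvate dehydrogenase, was called lower in KO cells by 0.13 (adjusted p 0.0467), a call lost with the line block (−0.11, adjusted p 0.177) and without any 1 of KO day 3 replicates 1, 2 and 3 or KO day 5 replicates 2 and 3, with values of −0.11, −0.12, −0.11, −0.13 and −0.01.

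Between days 0 and 3 the members split. In KO cells 6 rose and 16 fell (43.3% of all tested genes were called, 22.8% higher and 20.4% lower), and in WT cells 9 rose and 15 fell (45.5% of all genes, 24.3% higher and 21.2% lower). The main rise in WT cells was Slc2a1, the basal glucose transporter GLUT1 (log2 FC 2.24, SE 0.14, adjusted p 1.61e-12), which rose by 0.68 in KO cells (SE 0.13, adjusted p 0.000151). Slc16a3 rose by 1.79 in KO and 1.96 in WT cells, Eno2 by 1.34 and 1.54, and Pfkfb3 by 0.88 and 1.05. Pdk1, the kinase isoform that dominated in ESCs, was at 78.0, 69.3, 68.9 and 45.6 CPM in KO day 3 libraries, against 255 and 271 CPM in KO day 0 libraries, and at 63.6, 54.5, 54.7 and 53.8 CPM in WT day 3 libraries, against 279.8 and 296 CPM in WT day 0 libraries. The drop exceeded the spread in both genotypes, with a log2 FC of −2.11 (SE 0.23, adjusted p 4.03e-08) in KO and −2.45 (SE 0.23, adjusted p 3.33e-09) in WT cells. Pfkp fell by 2.78 in KO (SE 0.24, adjusted p 6.76e-10) and by 2.24 in WT cells (SE 0.24, adjusted p 2.84e-08), and Pdk4 by 2.97 and 2.43. Mpc1 fell in WT cells (log2 FC −1.20, SE 0.23, adjusted p 0.000114). It was not called in KO cells, at 7.81 to 9.54 CPM on day 3 and at 10.9 and 12.8 CPM on day 0. The difference between its KO and WT changes did not pass.

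Several steps are served by paralogs whose levels can be set side by side in TPM, and the leading one changed with the day in 5 of 11 families, in KO as in WT cells. These families were the glucose transporters, the bifunctional PFKFB enzymes, the monocarboxylate transporters, the pyruvate carrier subunits and the subunits of pyruvate dehydrogenase, the last of which are partners in a complex and not alternatives. With expected counts in place of TPM only 2 of 11 changed in each genotype, the glucose transporters and the carrier subunits. The shares are described per library with no test.

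Of the summed TPM of Slc2a1 and Slc2a3, Slc2a1 took 14.2, 64.0, 63.2, 38.6, 25.6 and 30.8% in KO cells on days 0 to 5 (means) and 15.7, 74.6, 72.7, 58.2, 30.1 and 21.8% in WT cells. Slc2a3 was thus the main transporter transcript in ESCs, yielded to Slc2a1 on days 1 and 2 and led again on days 4 and 5. On day 3 the lead differed: the Slc2a1 share was 33.4 to 48.0% in KO libraries and 55.5 to 61.8% in WT libraries, 61.1 and 65.5% in MUT libraries and 61.4% in WT70. By day 5 the share was 28.1 to 35.2% in KO libraries, above the 18.6 to 23.8% of WT libraries, with 19.7 and 19.9% in MUT libraries and 19.3% in WT70.

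Hexokinase 2 (Hk2) led Hk1 in all groups by mean. Pfkl, the liver-type phosphofructokinase, also led throughout, but Pfkp took 41.3% of the family's TPM in KO and 45.5% in WT cells on day 0 and only 7.64% and 12.7% on day 2. Among the PFKFB enzymes, Pfkfb1 led on day 0 with 43.7% in KO and 35.5% in WT cells, and Pfkfb3 led on day 5 with 54.4% in KO and 67.6% in WT cells. The Pfkfb3 share on day 5 was 47.1 to 60.4% in KO libraries and 65.9 to 69.9% in WT libraries, with no overlap. Ldha made up most of the lactate dehydrogenase pool, and the Ldhb share was 4.22% in KO and 5.62% in WT cells on day 5, against 17.1% in KO and 17.5% in WT cells on day 0. Pkm yields M1 and M2 isoforms by splicing, which a gene-level value cannot separate.

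The monocarboxylate transporters parted between genotypes. Slc16a1, or MCT1, took 65.8, 41.3, 43.4, 39.1, 77.2 and 65.9% of the summed TPM of Slc16a1 and Slc16a3 in KO cells on days 0 to 5 and 63.5, 42.9, 33.0, 33.9, 41.4 and 37.6% in WT cells. From day 4 on, Slc16a1 led in KO cells, at 61.9 to 69.3% on day 5, and Slc16a3 led in WT cells, where the Slc16a1 share was 35.5 to 39.5%. MUT day 5 libraries were at 51.0 and 53.7%, with WT70 at 36.4%. The Mpc1 share of the carrier was 56.9% in KO and 37.4% in WT cells on day 3 and 23.3% in KO and 15.2% in WT cells on day 5, with values of 18.5 to 26.4% in KO and 7.36 to 19.5% in WT libraries on day 5. Pdk1 took 87.2% of the kinase pool in KO and 85.8% in WT cells on day 0. On day 5 the Pdk1 share was 61.7 to 70.7% in KO libraries and spread from 42.2 to 68.3% in WT libraries, so that the groups overlapped. The rest was mostly Pdk3, at 29.6% in KO and 42.5% in WT cells on day 5.

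**Figure D2:**
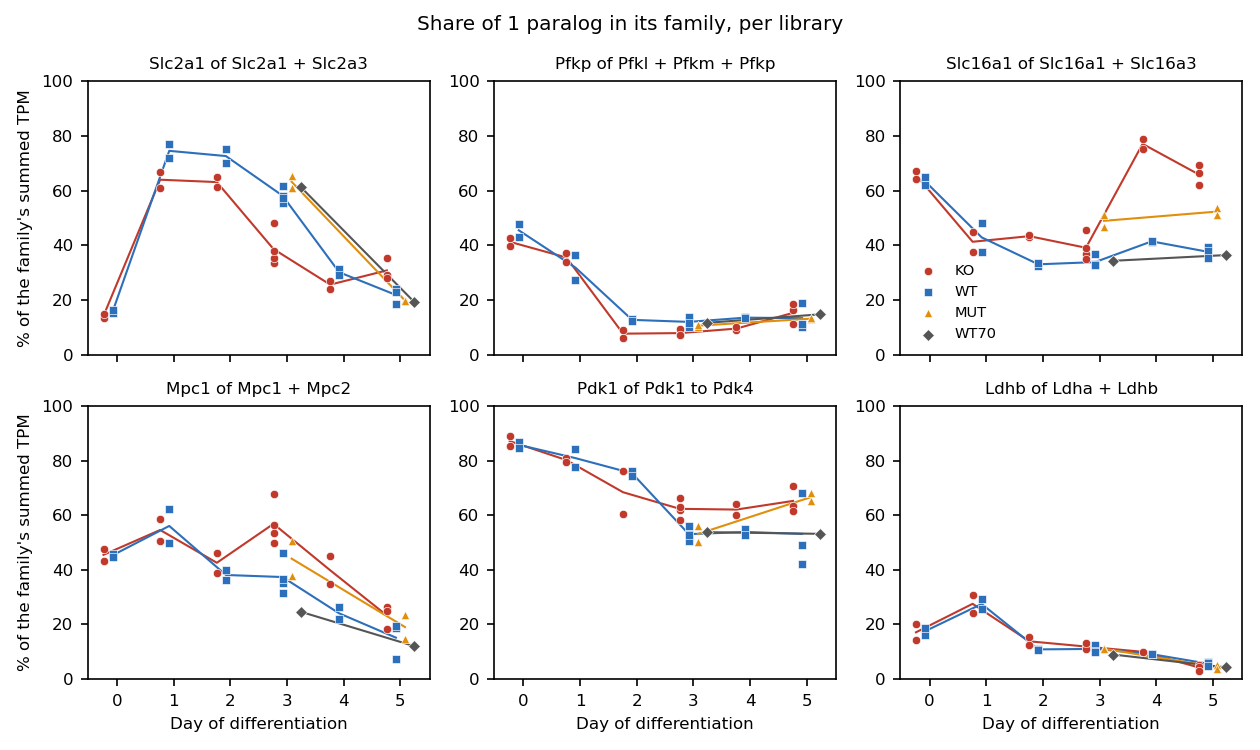
Share of a family's summed TPM (percent, y axis) held by Slc2a1, Pfkp, Slc16a1, Mpc1, Pdk1 and Ldhb against the day (x axis), with 1 point per library and lines joining group means. The Slc2a1 share is lower in KO than in WT cells on day 3 (38.6 against 58.2%) and the Slc16a1 share higher on day 4 (77.2 against 41.4%).

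Few members differed between KO and WT cells up to day 2. On day 0, 3 members were higher and none lower in KO than in WT cells, where 4% of all tested genes were called (2.37% higher, 1.62% lower). None was beyond a log2 FC of 1, as 0.866% of all genes were. Hk1 was at 82.3 and 104 CPM in KO libraries, against 65.7 and 57.7 CPM in WT libraries (log2 FC 0.60, SE 0.14, adjusted p 0.0163). The 2 groups did not overlap, but the call was lost without KO replicate 2 (0.41, adjusted p 0.301) or WT replicate 2 (0.49, adjusted p 0.204). In TPM the gap was wider, at 26.4 and 23.5 in KO libraries and 9.80 and 7.21 in WT libraries. Pfkm was at 58.9 and 62.2 CPM in KO and 40.3 and 45.4 CPM in WT libraries (log2 FC 0.49, SE 0.10, adjusted p 0.00298), and without WT replicate 1 it was 0.40 (adjusted p 0.0754). It kept its call under 8 of 12 alternatives and was at 0.19 (adjusted p 0.792) on log2(TPM + 1). Pdk2 was called higher as well (0.78, SE 0.22, adjusted p 0.0454), but not without any 1 of KO replicates 1 and 2 (0.78 and 0.77) or WT replicates 1 and 2 (0.62 and 0.96). The Pdk2 call was kept under 2 of 12 alternatives, and the value was 0.13 (adjusted p 1) on log2(TPM + 1). Of the cell type markers on day 0, 3 of 5 formative and primed markers (summed 435 to 551 CPM in KO and 687 to 744 CPM in WT libraries) and 1 of 7 neural markers were lower in KO cells, and their part in these differences was not tested. On day 1 edgeR called no member (2.88% of all genes, 1.24% higher and 1.65% lower), with 4 members at an unadjusted p under 0.05, and DESeq2 called 1.

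On day 2 only Slc2a1 was called, with 8 members and 2545 of 21601 tested genes at an unadjusted p under 0.05. Slc2a1 was lower in KO cells (1.72% of all genes were called, 0.875% higher and 0.847% lower). It was at 368 and 558 CPM in KO libraries, against 675 and 689 CPM in WT libraries. The groups did not overlap and the log2 FC was −0.56 (SE 0.14, adjusted p 0.0422), but the call rests on KO replicate 1: without it the value was −0.28 (adjusted p 0.482), and without WT replicate 1 or 2 it was −0.57 (adjusted p 0.175) or −0.54 (adjusted p 0.232).

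On day 3, 3 members were higher and 8 lower in KO cells (15.8% of all genes were called, 6.25% higher and 9.5% lower), and 1, Slc2a1, was beyond a log2 FC of 1, as 3.96% of all genes were. It was at 364, 416, 323 and 367 CPM in KO libraries, against 1205, 1200, 897 and 904 CPM in WT libraries. The highest KO library was below the lowest WT library, in both experiments, and the log2 FC was −1.51 (SE 0.10, adjusted p 1.80e-10), with −1.62 in experiment 1 alone and −1.36 in experiment 2 alone. The call was kept under 18 of 18 alternatives. The brain-type aldolase Aldoc (log2 FC −0.59, SE 0.14, adjusted p 0.0032), Pfkp (−0.69, SE 0.20, adjusted p 0.0194), Slc16a3 (−0.44, adjusted p 0.0281), Eno2 (−0.40, adjusted p 0.0338), Slc2a3, Bpgm and Eno3 were lower too. Aldoc was at −0.29 in experiment 1 alone, where it was not called, and at −0.82 in experiment 2 alone. KO replicate 4 was the lowest library for Pfkp, Aldoc and Slc16a3, and without it Pfkp was at −0.48 (adjusted p 0.103) and Slc16a3 at −0.30 (adjusted p 0.141). Without WT replicate 1 Pfkp was at −0.66 (adjusted p 0.0571), and Slc16a3 also lost its call without any 1 of WT replicates 1, 2 and 3 (−0.40, −0.45 and −0.40). Eno2 overlapped between the groups as a whole but not within an experiment, at 8.68 and 8.12 CPM in KO and 9.78 and 13.7 CPM in WT libraries of experiment 1 and at 19.3 and 18.6 CPM in KO and 23.5 and 24.2 CPM in WT libraries of experiment 2. It kept its call under 5 of 18 alternatives, with values between −0.48 and −0.30, and was called in neither experiment alone (−0.48, adjusted p 0.112, and −0.31, adjusted p 0.457).

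Mpc1 was higher in KO cells on day 3, at 9.54, 8.38, 7.81 and 8.86 CPM in KO libraries, against 4.58, 5.47, 3.00 and 4.32 CPM in WT libraries. Although the gene is expressed at a low level, the groups did not overlap, and the log2 FC of 1.00 (SE 0.18, adjusted p 0.000316), 0.84 in experiment 1 alone and 1.19 in experiment 2 alone, was kept under 18 of 18 alternatives. Pdha1 was at 248, 243, 233 and 219 CPM in KO libraries, against 208, 207, 202 and 205 CPM in WT libraries, a small gap with no overlap (log2 FC 0.20, SE 0.05, adjusted p 0.00509). Within experiment 2 alone it was 0.18 and was not called. Ldhb was also higher (0.45, adjusted p 0.0166), but not called without WT replicate 1 or 2 (0.43 and 0.41) or KO replicate 3 (0.39).

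On day 4, 4 members were higher and 6 lower in KO cells (16.4% of all genes were called, 7.68% higher and 8.74% lower). Slc16a1, which moves lactate and pyruvate with a proton across the plasma membrane, was at 1410 and 1294 CPM in KO libraries, against 328 and 332 CPM in WT libraries, while a day earlier it was at 233 to 254 CPM in KO and 259 to 275 CPM in WT libraries. The log2 FC on day 4 was 2.04 (SE 0.10, adjusted p 2.81e-12), kept under 12 of 12 alternatives. Mpc1 was at 5.61 and 5.68 CPM in KO and 1.93 and 2.54 CPM in WT libraries (log2 FC 1.33, SE 0.29, adjusted p 0.00146). Eno3, the muscle enolase, was lower, at 11.4 and 13.2 CPM in KO and 24.6 and 25.5 CPM in WT libraries (log2 FC −1.03, SE 0.18, adjusted p 0.000136), and Eno2 was at 10.3 and 11.6 CPM in KO and 22.7 and 20.2 CPM in WT libraries (log2 FC −0.97, SE 0.19, adjusted p 0.00044). The Eno2 call was kept under 8 of 12 alternatives, and the value was −0.97 (adjusted p 0.201) without the experiment term and −0.68 (adjusted p 0.188) on log2(TPM + 1). For none of these 4 genes did KO and WT libraries overlap. Pfkm (−0.50, SE 0.09, adjusted p 0.000338), Slc2a1 (−0.55, adjusted p 0.00704), Hk1 (−0.51, adjusted p 0.0178) and Pdk3 were lower and Ldha (0.40, adjusted p 0.0362) and Pfkfb2 (0.46, adjusted p 0.0265) higher. With 2 libraries a group, 4 of these depended on single libraries. Slc2a1 lost its call without KO replicate 1 (adjusted p 0.0864) or WT replicate 1 (adjusted p 0.0602), Hk1 without KO replicate 2 (0.236) or WT replicate 2 (0.266), Ldha without KO replicate 2 (0.232), WT replicate 1 (0.0654) or WT replicate 2 (0.226), and Pfkfb2 without any 1 of the 4. Their values without these libraries were −0.49 and −0.52 for Slc2a1, −0.37 and −0.34 for Hk1, 0.33, 0.48 and 0.34 for Ldha and 0.41 to 0.52 for Pfkfb2.

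**Figure D3:**
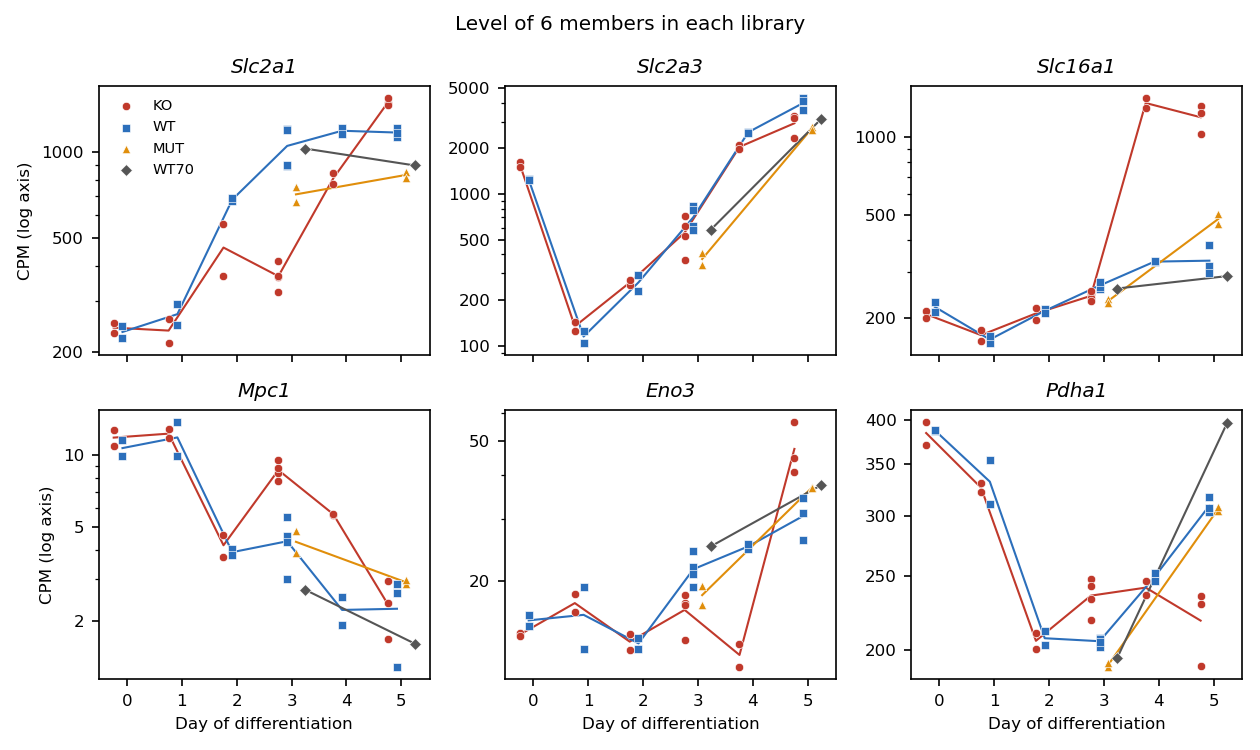
CPM (log axis) of Slc2a1, Slc2a3, Slc16a1, Mpc1, Eno3 and Pdha1 against the day, with 1 point per library for KO, MUT, WT and WT70. Slc16a1 is at 1294 to 1410 CPM in KO and 328 to 332 CPM in WT libraries on day 4, and Slc2a1 on day 3 at 323 to 416 CPM in KO and 897 to 1205 CPM in WT libraries.

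On day 5, 6 members were higher and 6 lower in KO cells (31.2% of all genes were called, 15% higher and 16.2% lower), a share of the members close to that of all genes. Slc16a1 was at 1316, 1233 and 1024 CPM in KO libraries, against 318, 297 and 382 CPM in WT libraries. The groups were far apart and the log2 FC was 1.84 (SE 0.09, adjusted p 4.68e-14), with 2.06 in experiment 1 alone and 1.42 in experiment 2 alone, which holds 1 library a group on this day. The call was kept under 16 of 16 alternatives. Eno3 had turned round since day 4, at 44.9, 40.9 and 56.7 CPM in KO libraries and 34.4, 26.1 and 31.2 CPM in WT libraries (log2 FC 0.63, SE 0.14, adjusted p 0.000718), with no overlap and with 0.51 in experiment 1 alone and 0.86 in experiment 2 alone. Slc2a1 was higher in KO cells as well, at 1491, 1458 and 1544 CPM in KO libraries, against 1132, 1219 and 1162 CPM in WT libraries (log2 FC 0.36, SE 0.12, adjusted p 0.0196), and is given here although it was not among the 5 largest.

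Pdha1 went the other way, at 236, 229.9 and 191 CPM in KO day 5 libraries, against 303, 317 and 307 CPM in WT day 5 libraries. All KO libraries were below all WT libraries, and the log2 FC of −0.50 (SE 0.06, adjusted p 1.05e-07), −0.40 in experiment 1 alone and −0.69 in experiment 2 alone, was kept under 16 of 16 alternatives. Hk1 (log2 FC −0.63, SE 0.12, adjusted p 0.000183) was at 35.6 to 40.8 CPM in KO and 56.6 to 66.1 CPM in WT libraries, with no overlap, and in TPM at 12.4 to 15.7 in KO and 8.56 to 18.6 in WT libraries, where the groups did overlap. The Hk1 call was kept under 12 of 16 alternatives, and on log2(TPM + 1) the value was −0.04 (adjusted p 1). Slc2a3 was lower in KO cells (−0.46, SE 0.11, adjusted p 0.00189), with day 5 values given above that did not overlap, and was at −0.26 (adjusted p 0.376) on log2(TPM + 1). In experiment 2 alone, with 1 library a group, Hk1 (−0.51) and Slc2a3 (−0.61) were not called. Pfkfb2 was higher (0.76, SE 0.12, adjusted p 1.51e-05), at 0.90 in experiment 1 alone and at 0.50 in experiment 2 alone, where it was not called. Pdk1 was called higher (0.64, SE 0.22, adjusted p 0.0295) with overlapping groups, at 105, 113 and 157 CPM in KO and 50.9, 61.6 and 132 CPM in WT libraries, the 157 and 132 CPM being those of experiment 2. It was not called without WT replicate 1 (0.41) or 2 (0.51) or KO replicate 3 (0.52). Pfkfb1 (0.42), Gpi1 (−0.19), which isomerises glucose 6-phosphate, and Pfkm (−0.22) passed by small margins and kept their calls under 8, 5 and 5 of 16 alternatives, each being lost without any 1 of WT replicates 1 and 2 and KO replicate 1, Pfkfb1 and Gpi1 also without KO replicate 3 and Pfkm without KO replicate 2. The values without these libraries were 0.36 to 0.45 for Pfkfb1, −0.20 to −0.11 for Gpi1 and −0.20 to −0.17 for Pfkm, which was at −0.05 (adjusted p 0.888) on log2(TPM + 1).

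**Figure D4:**
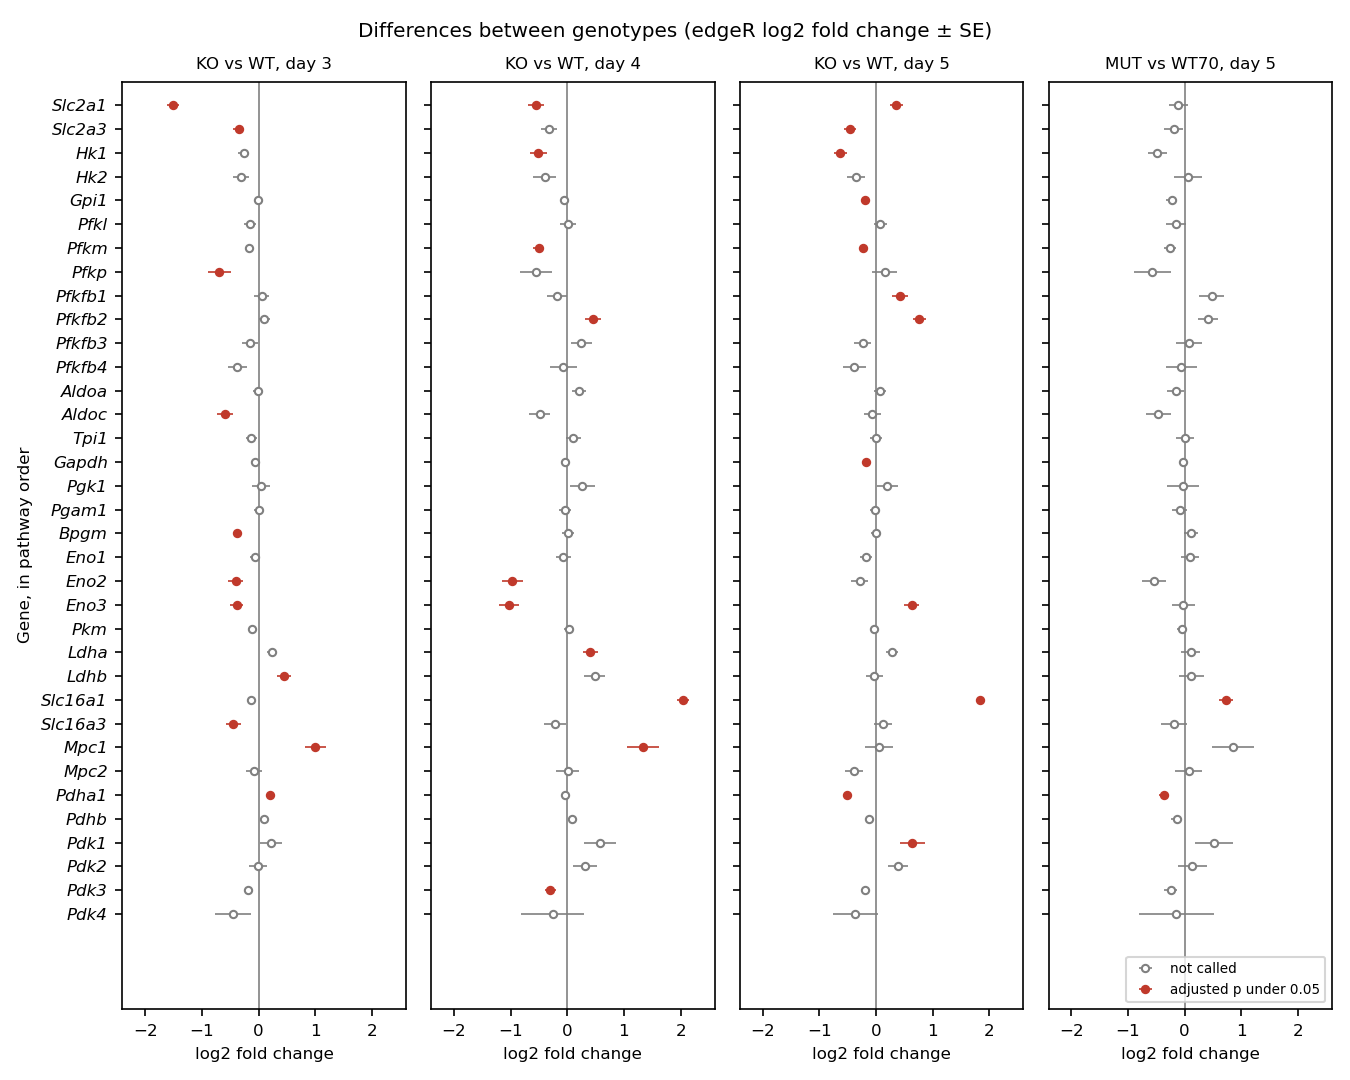
Log2 fold change with its SE (x axis) of every member (y axis), KO over WT on days 3, 4 and 5 and MUT over WT70 on day 5, with filled red points at an adjusted p under 0.05. Slc16a1 is at 2.04 on day 4, 1.84 on day 5 and 0.73 in MUT cells, and Slc2a1 at −1.51 on day 3.

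Markers of other cell types moved with these differences, and their part in them was not tested. On day 4, 5 of 5 streak markers were higher in KO cells (summed 576 to 590 CPM in KO and 90.9 to 92.7 CPM in WT libraries), 4 of 5 endoderm markers were higher (352 to 353 and 28.6 to 36.8 CPM) and 7 of 7 neural markers were lower (170 to 172 and 470 to 489 CPM). Also higher were 4 of 6 mesoderm and 3 of 7 cardiac markers and the 1 erythroid marker tested. Of 5 formative and primed markers 1 was higher and 3 were lower. Of 6 feeder fibroblast markers 1 was higher and 2 were lower (14.1 to 15.2 CPM in KO and 42.5 to 48.4 CPM in WT libraries). On day 5, 7 of 7 cardiac, 6 of 6 mesoderm (320 to 369 CPM in KO and 24.8 to 81.1 CPM in WT libraries) and 5 of 5 endoderm markers (261 to 278 CPM in KO and 9.46 to 78.4 CPM in WT libraries) were higher and 7 of 7 neural markers lower. Also higher were 4 of 5 streak and 2 of 6 naive markers and the 1 erythroid marker tested. Of 5 formative and primed markers 2 were higher and 3 lower. Of 6 feeder markers 2 were higher and 2 lower (37.7 to 63.9 CPM in KO and 87.0 to 96.0 CPM in WT libraries). On day 3, 4 of 5 streak markers were higher and 5 of 7 neural markers lower (summed neural level 334 to 444 CPM in KO and 504 to 689 CPM in WT libraries), while cardiac markers summed to 5.96 to 8.81 CPM in KO and 11.1 to 18.7 CPM in WT libraries. On that day 3 of 6 naive markers (56.5 to 70.0 CPM in KO and 44.0 to 54.6 CPM in WT libraries) and 2 of 5 endoderm markers (58.0 to 70.4 CPM in KO and 5.00 to 23.1 CPM in WT libraries) were also higher, and of 5 formative and primed markers 1 was higher and 2 were lower (2466 to 2988 CPM in KO and 3182 to 3584 CPM in WT libraries). Of 7 cardiac markers 1 was higher and 2 were lower, 1 of 6 mesoderm markers was higher and 1 of 6 feeder markers was lower (29.7 to 33.0 CPM in KO and 46.0 to 48.4 CPM in WT libraries).

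Whether a gene changed differently over time in KO than in WT cells was tested as a difference of log2 fold changes (KO minus WT). From day 0 to day 3, 1 member had a higher and 6 a lower change in KO cells (7.18% of all genes were called, 2.79% higher and 4.4% lower), with Slc2a1 at −1.56 (SE 0.18, adjusted p 7.00e-06), kept under 20 of 20 alternatives. From day 3 to day 5, 6 were higher and 2 lower (22.6% of all genes, 11.4% higher and 11.1% lower). Slc16a1 (1.97, SE 0.11, adjusted p 7.86e-12), Slc2a1 (1.87, SE 0.15, adjusted p 2.92e-09), Eno3 (1.02, SE 0.18, adjusted p 0.000168) and Pdha1 (−0.70, SE 0.07, adjusted p 1.19e-07) were each kept under 24 of 24 alternatives. The pattern of Slc2a1 was thus a late rise in KO cells: it was at 774 and 845 CPM on day 4 and 1458 to 1544 CPM on day 5, while WT cells were at 897 to 1205 CPM from day 3 and at 1132 to 1219 CPM on day 5.

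In MUT cells, which carry a TET1 protein without catalytic activity, the control WT70 had a single library a day, whose spread was assumed to be that of the other groups. On day 3 edgeR called no member (0.199% of all genes, 0.0556% higher and 0.144% lower), with 16 members at an unadjusted p under 0.05, and DESeq2 called 2. The count was larger, with most of those called lower in MUT cells, when only the libraries compared were fitted, a fit with 1 WT70 library. It was 10 with WT7, WT34 and WT70 together as controls and 9 with no low-count filter. The share of all genes called was not counted in these fits. With all libraries in the fit, 1301 of 21601 tested genes were at an unadjusted p under 0.05. The members' median log2 FC was −0.28, beside 0.00 over all tested genes. Slc2a1 was at 667 and 756 CPM in MUT libraries and 1030 CPM in WT70 on day 3, a gap that did not pass with all libraries in the fit. On day 5, 1 member was higher and 1 lower (3.25% of all genes, 1.79% higher and 1.47% lower). Slc16a1 was at 502 and 461 CPM in MUT libraries, against 289.9 CPM in WT70 (log2 FC 0.73, SE 0.13, adjusted p 0.00157), and was kept under 11 of 11 alternatives, at 0.59 with WT7, WT34 and WT70 together as controls. Pdha1 was at 304 and 308 CPM in MUT libraries and 396 CPM in WT70 (log2 FC −0.37, SE 0.08, adjusted p 0.00993). That difference was −0.14 (adjusted p 0.248) against WT7, WT34 and WT70 together, WT day 5 libraries being at 303 to 317 CPM, and the call was lost without MUT replicate 1 (−0.36, adjusted p 0.0813) or 2 (−0.38, adjusted p 0.0506). Of the cell type markers on day 5, 1 of 5 streak, 1 of 5 endoderm, 2 of 6 mesoderm and 2 of 7 cardiac markers were higher and 1 of 7 neural markers lower in MUT cells. The summed streak level was 95.3 to 115 CPM in MUT libraries and 15.2 CPM in WT70, where Mixl1 was at 0, and the cardiac sum was 37.0 to 42.2 CPM in MUT libraries and 11.9 CPM in WT70, where Nkx2-5 was at 0. Their part in the Slc16a1 difference was not tested.

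The effects of KO, taken against WT7 and WT34, and of MUT, taken against WT70, were compared directly. On day 3 the KO effect on Slc2a1 was lower than the MUT effect by 0.98 on the log2 scale (SE 0.21, adjusted p 0.0172), with 0.597% of all genes called, and without MUT day 3 replicate 2 the difference was −0.88 (adjusted p 0.128). On day 5 the KO effect on Slc16a1 exceeded the MUT effect by 1.11 (SE 0.15, adjusted p 2.05e-05), with 5.94% of all genes called, a call kept under 16 of 16 alternatives. These were the members that passed, 1 on each day. The MUT libraries were made in a different experiment from the KO libraries, each compared with its own WT.

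Genes outside the list gave the setting. Of 16 genes of the hypoxia response outside glycolysis, 15 fell between days 0 and 1 in KO cells and 13 in WT cells (median log2 FC −1.53 in KO and −1.20 in WT cells, beside −0.06 and −0.02 over all genes). Over all genes 17.7% fell in KO and 15.2% in WT cells. Between days 3 and 5, 14 of 16 rose in KO, MUT and WT cells (medians 1.27, 1.28 and 1.18), beside 24.1, 19 and 20.1% of all genes. Bnip3, a mitophagy receptor and known target of the hypoxia-inducible factors, fell by 2.35 in KO and 1.65 in WT cells over the first day and rose by 2.02 in KO, 2.03 in MUT and 1.28 in WT cells between days 3 and 5. Hif1a, which encodes the regulated subunit, moved in the opposite sense, with log2 FC of 0.82 in KO and 0.91 in WT cells over the first day and of −0.31 in KO, −0.55 in MUT and −0.63 in WT cells between days 3 and 5. Between KO and WT cells, 1 of the 16 was higher and 4 lower in KO cells on day 3 (median log2 FC −0.23), beside 15.8% of all genes called. On day 4, 2 were higher and 1 lower (median 0.07), beside 16.4% of all genes. On day 5, 3 were higher and 2 lower (median 0.13), beside 31.2% of all genes. Adm was lower in KO cells on days 3, 4 and 5, with log2 FC of −1.73, −2.12 and −2.71. Ndrg1 was higher on days 3 and 4, with 1.13 and 1.10, and already on day 0, with 0.98 (SE 0.27, adjusted p 0.0361). On day 0, 2 of the 16 were higher and 0 lower in KO cells (median log2 FC 0.28), beside 4% of all genes called.

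Serine synthesis, which branches off at 3-phosphoglycerate, ran against the pathway: 5 of 5 genes fell between days 3 and 5 in KO and in WT cells and 2 of 5 in MUT cells. Over all genes 26.6% fell in KO, 22.8% in WT and 20.7% in MUT cells. Psat1, the phosphoserine aminotransferase, fell by 1.08 in KO, 0.51 in MUT and 0.72 in WT cells. Psat1, Phgdh and Psph, the 3 enzymes that make serine, were lower in KO than in WT cells on days 3, 4 and 5, with log2 FC on day 5 of −0.59, −0.42 and −0.45. Over all genes 9.5, 8.74 and 16.2% were lower in KO cells on these days. Shmt1, another of the 5 genes, was higher in KO cells on day 3 (0.28, SE 0.07, adjusted p 0.0039), beside 6.25% of all genes. Of 17 citrate cycle genes, 11 fell in KO, 9 in MUT and 10 in WT cells between days 3 and 5 and 2 rose in each, beside the shares of all genes given above for these days. Between genotypes, 3 of the 17 were higher and 0 lower in KO cells on day 3, where 6.25% of all genes were higher and 9.5% lower. On day 4, 0 were higher and 1 lower, where 7.68% of all genes were higher and 8.74% lower. On day 5, 0 were higher and 5 lower in KO cells, where 15% of all genes were higher and 16.2% lower. Among the 5 was Idh3a, the catalytic subunit of NAD-dependent isocitrate dehydrogenase (log2 FC −0.93, SE 0.06, adjusted p 1.64e-11).

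Of 20 further tested genes of glycolysis and pyruvate dehydrogenase, 5 were higher and 7 lower in KO cells on day 5, where 15% of all genes were higher and 16.2% lower. Bsg, the chaperone that brings MCT1 and MCT4 to the membrane, was at 657.7 to 826 CPM in KO and 439.5 to 477 CPM in WT libraries on day 5 and was higher by log2 FC of 0.74 on day 4 and 0.76 on day 5 (SE 0.07, adjusted p 5.39e-09). Dlat, the acetyltransferase core of pyruvate dehydrogenase, was lower by 0.52 in KO cells (SE 0.06, adjusted p 3.91e-07) and by 0.37 in MUT cells (SE 0.09, adjusted p 0.0237) on day 5. Pgam2, the muscle phosphoglycerate mutase, was higher in KO cells on day 5 (log2 FC 5.56, SE 0.43, adjusted p 6.56e-10), at 10.4 to 18.7 CPM in KO libraries and 0.227 to 0.309 CPM in WT libraries. Slc2a4, the insulin-responsive transporter GLUT4, was lower in KO cells on days 3, 4 and 5, with log2 FC of −1.09, −1.86 and −1.58.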

How the data were processed

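Bulk RNA-seq was made by the authors from poly(A) RNA with a stranded kit. Reads were trimmed with Trim Galore 0.6.4, quantified with Salmon 0.14.1 against GENCODE transcripts (mm10) and summed per gene with tximport. The deposited expected counts are gene-level estimates, 73.8% of them exactly whole, and were rounded here. Whether tximport derived them from abundances is not given in the sources used here. The TPM values deposited by the authors are corrected for transcript length and give levels, shares and an alternative test. Salmon splits reads among similar transcripts, so Gapdh, Pgk1, Eno1, Ldha, Tpi1, Pgam1 and Aldoa, which have many pseudogenes, are uncertain. Total counts per library were 10.1 to 26.3 times 1e+06 (median 14.6). Gene positions are those of GENCODE M21, with 99.7% of identifiers matched.

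The 21601 genes kept by filterByExpr (count of 10, total of 15) were fitted in R 4.3.3 with edgeR 4.0.16: TMM scaling, 16 group means, an experiment 2 term, 19 residual degrees of freedom and the quasi-likelihood F test, with Benjamini-Hochberg adjustment over all tested genes. CPM values are counts per 1e+06 counts, scaled by TMM. Scripts were tested on simulated data. Named members are, per comparison, up to 5 with the highest and 5 with the lowest log2 fold change among those called, and per other list up to 4 with the smallest p. The members, lists and tests were chosen with earlier results of these data known.

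The same lines recur in each group of a genotype, so a replicate block for the line was tried in the comparisons of days, on only the libraries compared. Line differences correlated by -0.00996 to 0.0654 between days, over 21601 genes. The labels do not say which KO line is the littermate of which WT line, so KO and WT were not paired. Also tried were no low-count filter, RLE size factors, DESeq2 1.42.0, no experiment term, limma 3.58.1 on log2(TPM + 1) or log2(TPM + 0.1), only the libraries compared, each experiment alone, other controls for MUT and each library left out in turn.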

Additional observations from a re-analysis of the deposited data

Results flagged for a closer look

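Some values stood apart from the other libraries of their group by Dixon's test for 1 extreme value among 4, applied to 72 groups, of which chance alone marks about 1 in 20. KO day 3 replicate 4 was the lowest of its 4 libraries for Pfkl at 168.3 CPM (the others at 264.7 to 281.3), Pfkp at 22.08 CPM (38.57 to 41.44) and Aldoa at 699.9 CPM (1082 to 1104). KO day 3 replicate 3 was the lowest for Pdhb at 92.64 CPM (105.5 to 107.6). WT day 3 replicate 1 was the highest for Pdk1 at 63.61 CPM (53.79 to 54.71) and for Pdk3 at 47.8 CPM (40.3 to 40.56).

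Changes over time that differed between KO and WT cells, by the test of the difference itself, are given as KO minus WT on the log2 scale. From day 0 to day 3 they were Slc2a1 (−1.56), Slc2a3 (−0.68), Hk1 (−0.86), Pfkm (−0.66), Aldoc (−1.14), Bpgm (−0.43) and Pdhb (0.30). Without KO day 0 replicate 2, Hk1 (−0.65, adjusted p 0.0581) and Aldoc (−0.79, adjusted p 0.0775) did not pass, and Slc2a3 did not pass without KO day 0 replicate 1 (−0.60), WT day 0 replicate 1 (−0.67) or WT day 0 replicate 2 (−0.64). Pdhb kept its call under 8 of 20 alternatives. From day 3 to day 5 they were Slc2a1 (1.87), Pfkp (0.84), Pfkfb2 (0.67), Bpgm (0.38), Eno3 (1.02), Slc16a1 (1.97), Mpc1 (−0.95) and Pdha1 (−0.70), of which Pfkp kept its call under 11 and Mpc1 under 13 of 24 alternatives. The KO effect minus the MUT effect passed for Slc2a1 on day 3 (−0.98, adjusted p 0.0172) and Slc16a1 on day 5 (1.11, adjusted p 2.05e-05). Bpgm from day 0 to 3 was printed because the difference passed, outside the rule for named genes.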

How the results depend on the processing

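None of the 114 values of named members changed sign under the alternatives run for it. Of these, 66 passed under every alternative, and 1526 of 1797 single comparisons with an alternative kept their call. The counts of members called were otherwise as follows. Counting only log2 fold changes beyond 1 gave 0, 0, 1, 3 and 1 for KO against WT on days 0, 2, 3, 4 and 5, 10, 8 and 12 for KO day 1 against 0, 3 against 0 and 5 against 3, 9, 8 and 7 for the same WT comparisons, 11 for MUT, 0 for MUT against WT70 on day 5, 2 and 3 for the KO minus WT change over days 0 to 3 and 3 to 5, and 0 for the KO minus MUT effect on day 3. DESeq2 gave 1 for KO against WT on day 1 and 2 for MUT against WT70 on day 3. RLE size factors gave 0 on day 2. With no low-count filter KO against WT was at 3 on day 1 and 5 on day 2, MUT against WT70 at 9 on day 3 and 5 on day 5, and the KO minus MUT effect at 6 on day 3 and 3 on day 5. With no experiment term KO against WT was at 0 on day 2 and 6 on day 5, the change over days 0 to 3 at 4 and the KO minus MUT effect on day 3 at 0. On log2(TPM + 1), limma gave 0, 0, 6, 5 and 7 for KO against WT on days 0, 2, 3, 4 and 5, 1 for MUT against WT70 on day 5, 1 for the change over days 0 to 3 and 0 for the KO minus MUT effect on day 3. With a pseudocount of 0.1 the counts were the same except for 4 on day 4, and without the filter on low TPM days 3, 4 and 5 were at 5, 3 and 4, WT day 1 against 0 at 15 and the change over days 3 to 5 at 5. With TPM the median of all genes shifted by −0.11 in KO and −0.14 in WT cells for day 1 against day 0, where the members' medians were −0.42 in both. Fitting only the libraries compared gave 19 for KO against WT on day 4, 21 and 13 for MUT against WT70 on days 3 and 5 and 2 for the KO minus MUT effect on each day. Experiment 2 alone gave 5 on day 3 and 4 on day 5. WT7, WT34 and WT70 together as controls gave 10 on day 3 and 7 on day 5 for MUT. Counts in place of TPM gave 2 families with a change of leading paralog instead of 5. Shares of all genes called were not counted for the refits, and the causes were not tested.

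Fits with the block used only the libraries compared, and those of day 1 against 0 could hold no experiment term. With a replicate block for the line, KO day 1 against 0, 3 against 0 and 5 against 3 gave 25, 24 and 24 members, the same WT comparisons 16, 26 and 23, and MUT day 5 against 3 gave 29. Calls lost in these fits were that of Eno2 between days 0 and 1 in KO cells (−1.01, adjusted p 0.0704) and those given in the report.

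Leaving out 1 library in turn gave, for KO against WT on days 0 to 5, 1 to 3, 0 to 5, 0 to 1, 7 to 10, 6 to 7 and 7 to 14 members, for KO day 1 against 0, 3 against 0 and 5 against 3, 17 to 19, 21 to 24 and 24 to 26, for the same WT comparisons 17 to 23, 21 to 24 and 24 to 26, and for MUT 24 to 26. MUT against WT70 gave 0 on day 3 and 1 on day 5, the KO minus WT changes 4 to 7 and 6 to 10, and the KO minus MUT effects 0 to 5 and 1 to 2. The 5 members on day 3 were called without KO day 3 replicate 4. Groups of 1 to 4 libraries limit the precision of every value.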
